A study of Rattus norvegicus with 24 samples.

Results

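The transcripts described here are those of 7 growth arrest genes, Cdkn1a, Gadd45a, Gadd45b, Gadd45g, Mdm2, Ccng1 and Btg2, in the medial gastrocnemius of rats with cardiac cachexia (CC). They were picked by gene symbol, as stress genes that arrest the cell cycle, from 10851 genes measured in each of 24 rats, and all 7 were in the table. The choice was made with earlier results of these data known. Shares and medians of the 7 set beside those of all genes are therefore descriptions and not tests. The animals were male Wistar rats in 4 groups of 6, and each library came from the left muscle of a separate rat. The saline-injected controls were sedentary (Sed) or trained on a treadmill (Ex). The CC rats received a single monocrotaline injection and were likewise sedentary (CC-Sed) or trained (CC-Ex). Monocrotaline raises the pressure in the pulmonary circulation, which overloads the right ventricle and leads to heart failure and wasting, so the model is one of right-sided heart failure. Rats given monocrotaline that showed no right ventricular remodelling had been left out by the study, and some died before the end, so the CC groups hold survivors with the disease. Strain, sex and tissue were the same in all groups, and the age of the rats is not given in the sources used here.

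Skeletal muscle fibres have left the cell cycle for good, yet they switch on growth arrest genes when they are denervated, immobilised, starved or exposed to glucocorticoids. Cdkn1a encodes p21, an inhibitor of cyclin-dependent kinases, and Gadd45a, a nuclear stress protein, is known to act upstream of it in muscle atrophy. Gadd45b and Gadd45g are sister genes of Gadd45a that activate stress kinases of the p38 and JNK pathways and respond to cytokines and hormones as well as to DNA damage. Btg2 is an antiproliferative co-factor of mRNA deadenylation. Ccng1 encodes cyclin G1 and Mdm2 a ubiquitin ligase, and both are induced by DNA damage.

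The promoters of Cdkn1a and the 3 Gadd45 genes are shown because these 4 genes had the largest Log2FC between all CC and all saline rats among the 7. Each line gives the 250 bases before the RefSeq transcription start, 5′ to 3′ on the gene's strand, and the windows are chr20:7150682-7150931 (plus strand) for Cdkn1a, chr4:97486800-97487049 (minus strand) for Gadd45a, chr7:9430719-9430968 (minus strand) for Gadd45b and chr17:13530352-13530601 (minus strand) for Gadd45g in GRCr8. Capitals mark matches to 7 motifs searched on both strands.
Cdkn1a: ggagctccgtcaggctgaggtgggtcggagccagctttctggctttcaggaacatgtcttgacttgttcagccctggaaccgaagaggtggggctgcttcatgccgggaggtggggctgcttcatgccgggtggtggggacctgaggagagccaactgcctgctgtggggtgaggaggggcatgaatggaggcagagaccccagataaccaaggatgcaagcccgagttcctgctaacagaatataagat
Gadd45a: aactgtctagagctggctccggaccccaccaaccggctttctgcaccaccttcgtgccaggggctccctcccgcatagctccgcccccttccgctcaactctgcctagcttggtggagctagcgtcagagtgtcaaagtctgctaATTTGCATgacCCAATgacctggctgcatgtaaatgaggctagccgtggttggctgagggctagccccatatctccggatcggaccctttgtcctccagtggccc
Gadd45b: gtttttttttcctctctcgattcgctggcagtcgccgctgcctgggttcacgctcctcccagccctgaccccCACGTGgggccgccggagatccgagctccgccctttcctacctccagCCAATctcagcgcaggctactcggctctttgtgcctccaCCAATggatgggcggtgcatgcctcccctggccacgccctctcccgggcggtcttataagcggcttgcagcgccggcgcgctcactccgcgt
Gadd45g: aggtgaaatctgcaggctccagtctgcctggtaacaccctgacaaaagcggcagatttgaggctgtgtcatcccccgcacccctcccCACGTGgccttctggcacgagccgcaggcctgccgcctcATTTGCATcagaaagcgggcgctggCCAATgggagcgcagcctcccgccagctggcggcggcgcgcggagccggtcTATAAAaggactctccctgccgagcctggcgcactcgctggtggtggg
The Cdkn1a window held none of the 7 motifs and so has no capitals. In Gadd45a the capitals are the octamer ATTTGCAT, which begins 105 bases before the start, and a CCAAT box at 94 bases. Gadd45b held the E-box CACGTG and 2 CCAAT boxes. Gadd45g held the E-box, the octamer, a CCAAT box and a TATA box (TATAAA). Of 33469 rat promoters of the same length, 34% held CCAAT, 5.59% CACGTG, 1.56% ATTTGCAT and 12.9% TATAAA. The windows of the 7 genes were 53.6% to 72% GC, against a median of 51.2% over these promoters, so the shares are not matched for GC. Among the 7 genes, CCAAT was found in 6, all but Cdkn1a, CACGTG in Gadd45b and Gadd45g, ATTTGCAT in Gadd45a and Gadd45g, and TATAAA in Gadd45g. Of the other motifs searched, TGACGTCA occurred in Btg2 and in 1.59% of all promoters, the forkhead letters GTAAACA in Mdm2 and in 3.21%, and the AP-1 letters TGANTCA in 0 of the 7 and in 6.34%. No matches overlapped within a promoter, the motifs were chosen after the sequences had been seen, and a match describes letters and not binding.

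Total counts per rat lay between 37816239 and 50350554. The lowest count in the table was 10, and differences between animals rather than counting error set the precision, with a median biological coefficient of variation of 0.213. On the first principal component of log2 CPM (counts scaled by TMM to a common library size), which held 39.7% of the variance, CC-Ex 5 stood apart at 96.5. CC-Sed 4, CC-Ex 1 and CC-Ex 4 lay at -16.3, -16.7 and -11.5 on it, within the range of the saline rats (-27.8 to -2.56). The summed CPM of 9 skeletal muscle markers lay between 115218 and 255972 in every rat. Slow-fibre markers (4 of 7 measured) summed to between 16.9 and 7381 CPM, a spread that ran through all 4 groups. Because whole muscle was sequenced, fewer cells of a type and less RNA per cell cannot be told apart in any value below. Levels are compared between rats and groups and not between genes.

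Gadd45b separated the sedentary groups without overlap. It was measured at a lowest, median and highest level of 1.99, 3.82 and 4.97 CPM in Sed and of 5.84, 12.4 and 18.5 CPM in CC-Sed. Every CC-Sed rat was above every Sed rat. In the exercised groups it ran from 3.34 to 8.62 CPM in Ex (median 5.47) and from 4.49 to 42.9 CPM in CC-Ex (median 11.9), and 5 of 6 CC-Ex rats were above all Ex rats. The exception was CC-Ex 4. The share of all genes whose groups separated this far was not counted, for Gadd45b or for the genes below.

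Gadd45g was higher in most CC rats of both training states. Its lowest, median and highest levels were 17.4, 24.3 and 45.6 CPM in Sed and 32.6, 66.7 and 92.5 CPM in CC-Sed. Of the CC-Sed rats, 5 of 6 were above all Sed rats, CC-Sed 4 being the lowest. In Ex it ran from 12.8 to 33.4 CPM (median 24.7) and in CC-Ex from 16.6 to 202.6 CPM (median 68.7), with 5 of 6 CC-Ex rats above all Ex rats. The CC-Ex rat with the low value was replicate 1, which had the second highest Gadd45b level of its group, 17.1 CPM.

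Cdkn1a covered a wider range within a group than the other 6 genes in Sed, Ex and CC-Ex, and Gadd45a did so in CC-Sed. In Sed its level was 1.504 CPM at the lowest, 3.93 CPM at the median and 29.4 CPM at the highest. The highest, Sed 5, was above all 6 CC-Sed rats, among which it ran from 3.54 to 28.5 CPM (median 16.1). In Ex it ran from 1.47 to 9.36 CPM (median 2.09). In CC-Ex the lowest was 2.50, the median 7.04 and the highest 51.3 CPM, the last again in replicate 5. The CC-Ex rats all exceeded the Ex median, and 2 of them were above every Ex rat.

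Gadd45a followed Cdkn1a. Its lowest, median and highest levels were 11.3, 14.5 and 109.4 CPM in Sed, 11.1, 14.0 and 17.2 CPM in Ex, 12.1, 36.6 and 139.8 CPM in CC-Sed, and 8.56, 30.5 and 151.2 CPM in CC-Ex. The highest Sed value was again Sed 5, and the highest CC-Ex value again CC-Ex 5. The 6 Ex rats lay within 1.55-fold of each other, while the 6 CC-Ex rats covered a 17.7-fold range, with 4 of them above and 1 below all Ex rats.

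Btg2 lay above the median of its own controls in 5 of 6 CC-Sed and 4 of 6 CC-Ex rats. In CC-Sed it ran from 38.1 to 179.7 CPM (median 101.6), and 5 of 6 rats were above the Sed range of 33.96 to 62.3 CPM (median 45.5). In CC-Ex it ran from 26.0 to 148.5 CPM (median 62.6), and 1 of 6 rats was above the Ex range of 39.8 to 80.2 CPM (median 49.4). The top of the Ex range was set by the single rat Ex 5, and the next highest Ex rat was at 51.9 CPM.

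Ccng1 lay below the saline median in 11 of 12 CC rats. Its level was 1197 to 1802 CPM in Sed (median 1518) and 771 to 1357 CPM in CC-Sed (median 966), with 5 of 6 CC-Sed rats below all Sed rats. In Ex it was 1227 to 1747 CPM (median 1574) and in CC-Ex 694 to 2180 CPM (median 935), with 4 of 6 below all Ex rats. The CC-Ex rat at 2180 CPM, replicate 4, was above every other animal of the study, and the same rat was the lowest of its group for Cdkn1a, Gadd45b and Btg2.

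Mdm2 lay in a narrow band. The group medians were 58.9 CPM in Sed, 57.4 CPM in Ex, 63.6 CPM in CC-Sed and 52.5 CPM in CC-Ex, and the highest of 6 rats was 1.32, 1.497, 1.57 and 2.03 times the lowest in these groups. CC-Ex 5 was again the highest, at 97.2 CPM.

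**Figure D1:**
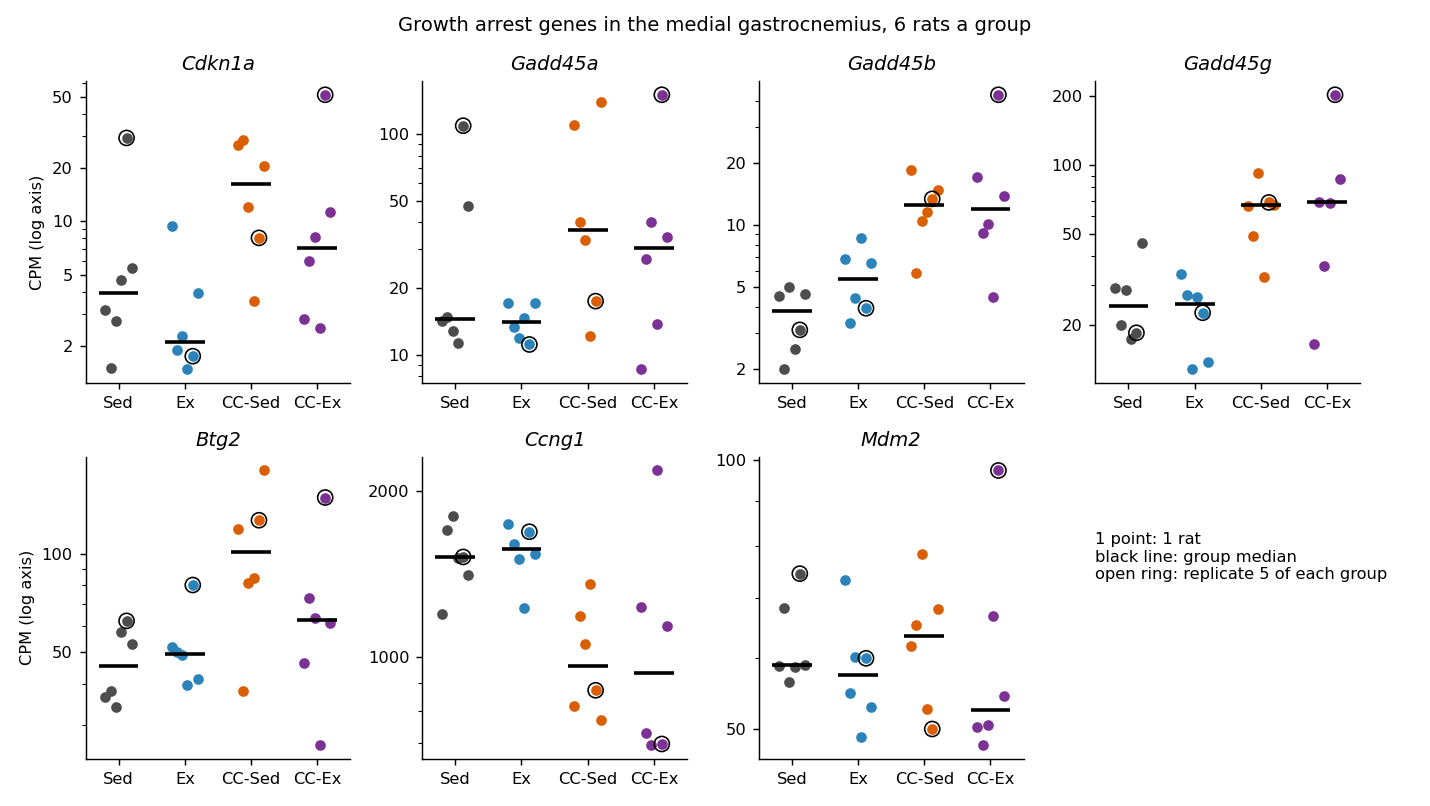
CPM (log axis) of the 7 growth arrest genes in each of 24 rats, by group, with group medians as black lines and replicate 5 of each group ringed. Gadd45b does not overlap between Sed and CC-Sed, and the share of all genes that do the same was not counted. Cdkn1a and Gadd45a are high in Sed 5 (29.4 and 109.4 CPM) and CC-Ex 5 (51.3 and 151.2 CPM).

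In sedentary rats, CC was tested against saline in a model of all 24 rats (edgeR quasi-likelihood, Benjamini-Hochberg adjustment over all 10851 genes), and a differentially expressed gene (DEG) met an adjusted p under 0.05 together with an absolute Log2FC of 1 or more. Gadd45b and Btg2 were upregulated, 2 of the 7 genes, where 1.87% of all genes were DEGs and 1.38% were upregulated. The Log2FC of Gadd45b was 1.78 (SE 0.406, edgeR adjusted p = 0.0159), and it remained a DEG in 12 of 12 fits that left out 1 rat, at 1.61 to 1.92. That of Btg2 was 1.16 (SE 0.336, edgeR adjusted p = 0.0446), a call kept in 2 of 12 such fits, those without CC-Sed 2 or CC-Sed 4. Btg2 was a DEG in 9 of 9 other settings, with adjusted p-values of 0.0130 to 0.0449. These settings include the fit without a filter, which repeats the main fit. Gadd45g had a Log2FC of 1.24 (SE 0.409, edgeR adjusted p = 0.0644) and passed without CC-Sed 4 (1 of 12 fits) and in 4 of 9 other settings, with adjusted p-values of 0.0134 to 0.0857 over the 9.

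Cdkn1a had a Log2FC of 1.08 in sedentary rats (SE 0.757, edgeR adjusted p = 0.352) and Gadd45a one of 0.75 (SE 0.674, edgeR adjusted p = 0.474). Both moved with single rats. Without Sed 5 their Log2FC values were 2.24 and 1.56, neither of them a DEG, and without CC-Sed 6 that of Gadd45a was 0.26. In other settings Cdkn1a was a DEG in 2 of 9, with limma-voom (1.87, limma adjusted p = 0.0215) and with Sed 5 and CC-Ex 5 both left out, a choice made after seeing the data (2.20, edgeR adjusted p = 0.0158). Gadd45a was a DEG in 0 of the 9. Ccng1 had a Log2FC of -0.59 (SE 0.227, edgeR adjusted p = 0.0983) and Mdm2 one of 0.00 (SE 0.153, edgeR adjusted p = 0.992). Over the 7 genes the median Log2FC was 1.08, and over all genes tested it was 0.02. The 7 were chosen with earlier results of these data known, so this contrast is no test.

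In exercised rats, Gadd45g was the DEG among the 7 genes, where 0.525% of all genes were DEGs and 0.442% were upregulated. Its Log2FC in CC-Ex over Ex was 1.81 (SE 0.416, edgeR adjusted p = 0.0366). The call was kept in 3 of 12 fits that left out 1 rat, and without CC-Ex 5 the Log2FC was 1.28 (edgeR adjusted p = 0.121). It was kept in 4 of 9 other settings. These 4 include the fit without a filter, which repeats the main fit because the filter removed 0 genes. Settings that lost the call included upper-quartile scaling and a model of the 12 exercised rats alone (edgeR adjusted p = 0.0559 and 0.182). The library number as a covariate and leaving out both Sed 5 and CC-Ex 5 also lost it (edgeR adjusted p = 0.0519 and 0.128). Library numbers ran from 1 to 14 in CC-Ex and from 7 to 23 in Ex, so that covariate is in part confounded with group. Gadd45b had a Log2FC of 1.53 (SE 0.401, edgeR adjusted p = 0.0578), which was 0.95 without CC-Ex 5 (edgeR adjusted p = 0.203). With 1 rat left out it passed in 2 of 12 fits, and among 9 other settings in 2, DESeq2 and limma-voom (adjusted p = 0.00573 and 0.0154), with a highest adjusted p of 0.219 over the 9.

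The other 5 genes did not pass in exercised rats. Cdkn1a had the largest Log2FC of the 7, 1.98 (SE 0.783, edgeR adjusted p = 0.149), and Gadd45a had 1.68 (SE 0.690, edgeR adjusted p = 0.162). Both of these rested on CC-Ex 5, and without it they were 0.81 and 0.78. Btg2 had a Log2FC of 0.43 (SE 0.333, edgeR adjusted p = 0.429), which was 0.04 without CC-Ex 5. The Log2FC of Ccng1 was -0.48 (SE 0.227, edgeR adjusted p = 0.213) and that of Mdm2 0.07 (SE 0.153, edgeR adjusted p = 0.798). The median was 1.53 over the 7 genes and 0.01 over all genes, a contrast limited by the same choice of genes.

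Training itself was compared as Ex against Sed and as CC-Ex against CC-Sed, and 0 of the 7 genes and 0 of all genes (0%) were DEGs in either. The counts of all genes were also 0 with DESeq2 and limma-voom, and at an unadjusted p under 0.05 there were 118 genes in the saline (1.09%) and 234 in the CC comparison (2.16%), 0 of them among the 7. In saline rats the Log2FC of Ex over Sed was -1.18 for Cdkn1a (95% interval -2.78 to 0.41) and -1.30 for Gadd45a (-2.71 to 0.12). Without Sed 5 these values were -0.02 and -0.49, and without Ex 1 that of Cdkn1a was -1.78. It was 0.63 for Gadd45b (-0.20 to 1.46), -0.22 for Gadd45g, 0.15 for Btg2, -0.10 for Mdm2 and 0.03 for Ccng1.

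In CC rats the Log2FC of CC-Ex over CC-Sed was -0.28 for Cdkn1a (95% interval -1.82 to 1.27) and -0.36 for Gadd45a (-1.75 to 1.02). It was -0.58 for Btg2 (-1.27 to 0.10), 0.39 for Gadd45b (-0.42 to 1.19), 0.35 for Gadd45g (-0.48 to 1.18), 0.14 for Ccng1 and -0.04 for Mdm2. Much of this moved with CC-Ex 5. Without it the values were -1.41 for Cdkn1a, -1.22 for Gadd45a, -0.93 for Btg2, -0.17 for Gadd45b and -0.16 for Gadd45g, and 0 of them were DEGs. Without CC-Sed 6 that of Gadd45a was 0.11.

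Whether the CC effect differed with training was tested as an interaction. No DEG was found among the 7 genes or among all genes (0%), with DESeq2 and limma-voom giving 0 as well and 154 genes (1.42%) at an unadjusted p under 0.05. The difference in Log2FC (exercised minus sedentary) was -0.73 for Btg2, with a 95% interval of -1.71 to 0.24. For Gadd45b it was -0.25 (-1.40 to 0.91) and for Gadd45g 0.57 (-0.61 to 1.76). The values of Cdkn1a (0.91) and Gadd45a (0.93) had intervals of -1.30 to 3.12 and -1.04 to 2.90, and those of Ccng1 (0.11) and Mdm2 (0.07) intervals of -0.55 to 0.77 and -0.38 to 0.51. Without Sed 5 the difference was -0.25 for Cdkn1a and 0.13 for Gadd45a. Without CC-Ex 5 it was -0.24 for Cdkn1a, 0.07 for Gadd45a, -0.80 for Gadd45b, 0.06 for Gadd45g and -1.09 for Btg2, and without CC-Ex 4 it was -0.05 for Gadd45b. Differences of 2-fold and more in either direction therefore lie inside the intervals of Cdkn1a and Gadd45a, and Btg2 being a DEG in sedentary rats alone is not shown to be a difference between the training states.

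**Figure D2:**
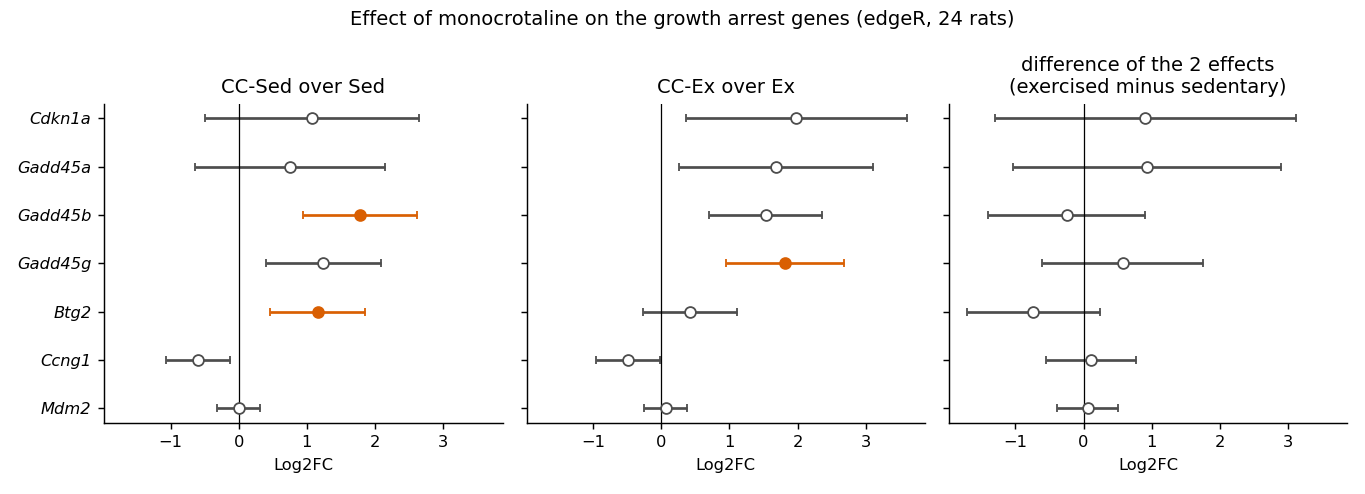
Log2FC of CC over saline rats in the sedentary and exercised groups, and the difference between these effects, for the 7 growth arrest genes (points, edgeR estimates; bars, 95% intervals; filled orange, adjusted p under 0.05). Gadd45b (1.78) and Btg2 (1.16) pass in sedentary rats and Gadd45g (1.81) in exercised rats, and every interval of the difference includes 0.

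With the sedentary and exercised effects averaged over the same 24 rats, 3 of the 7 genes were upregulated, Gadd45b, Gadd45g and Cdkn1a, where 2.88% of all genes were DEGs and 2.06% were upregulated. This comparison uses the rats of both earlier ones and is not independent of them. Gadd45b had a Log2FC of 1.66 (SE 0.285, edgeR adjusted p = 6.89e-04), and 12 of 12 CC rats were above the median of the saline rats. Gadd45g had one of 1.53 (SE 0.292, edgeR adjusted p = 0.00135), with 11 of 12 above that median. Both stayed DEGs in 24 of 24 fits that left out 1 rat.

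Cdkn1a had an averaged Log2FC of 1.53 (SE 0.544, edgeR adjusted p = 0.0400), with 10 of 12 CC rats above the saline median. This call was kept in 10 of 24 fits that left out 1 rat, and its Log2FC lay between 0.93 without CC-Ex 5 and 2.11 without Sed 5. It was 1.51 with both of these rats left out together, a choice made after seeing the data, and still passed (edgeR adjusted p = 0.0106). It did not pass with upper-quartile scaling or with the library number as a covariate (adjusted p = 0.0525 and 0.0566). Gadd45a, at 1.22 (SE 0.481, edgeR adjusted p = 0.0605), was higher than the saline median in 9 of 12 rats. It ran from 0.75 without CC-Ex 5 (edgeR adjusted p = 0.197) to 1.62 without Sed 5 (edgeR adjusted p = 0.0153) and was a DEG in 5 of 24 fits that left out 1 rat. In 3 of 8 other settings it passed, namely DESeq2 (1.21, DESeq2 adjusted p = 0.0385), the library number as a covariate (1.82, edgeR adjusted p = 0.0254) and both rats left out (1.15, edgeR adjusted p = 0.0334).

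Btg2 and Ccng1 passed the adjusted p but not the fold criterion, where 27.8% of all genes passed the adjusted p, 17.2% higher and 10.6% lower in CC rats. Btg2 was higher by a Log2FC of 0.79 (SE 0.236, edgeR adjusted p = 0.0183), in 9 of 12 CC rats against the saline median. Ccng1 was lower, with a Log2FC of -0.54 (SE 0.160, edgeR adjusted p = 0.0185) and 11 of 12 CC rats below the saline median. For Mdm2 the Log2FC was 0.04 (SE 0.108, edgeR adjusted p = 0.819), with a 95% interval of -0.19 to 0.26 and 6 of 12 rats on either side.

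**Figure D3:**
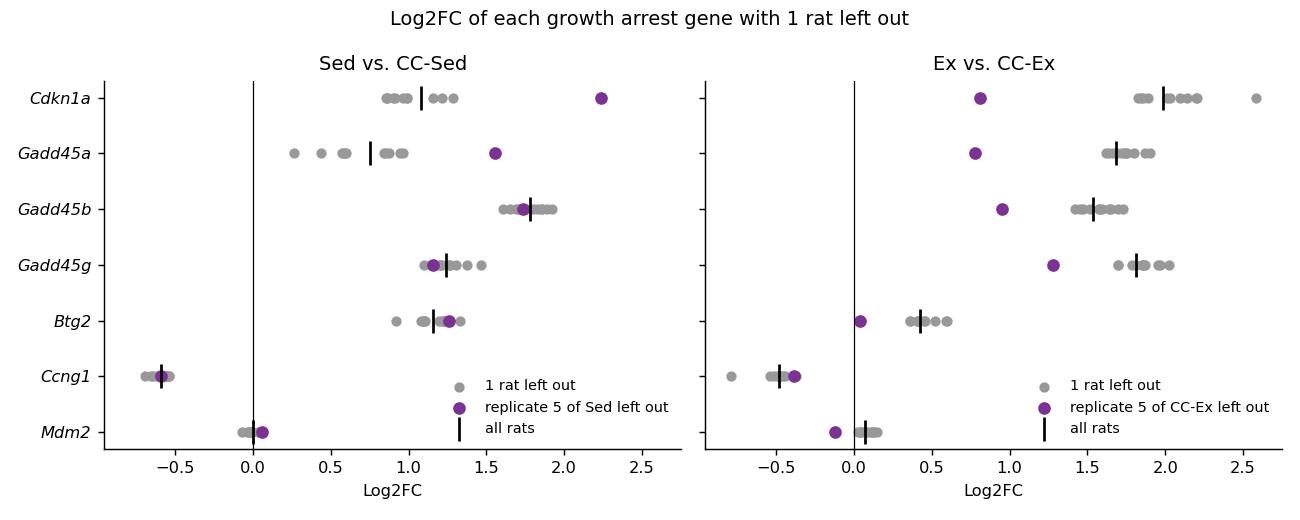
Log2FC of CC over saline rats for the 7 genes when 1 rat is left out (grey points), with all rats (black bars), and without Sed 5 in the sedentary or CC-Ex 5 in the exercised comparison (purple). Cdkn1a moves from 1.08 to 2.24 without Sed 5 and from 1.98 to 0.81 without CC-Ex 5, while Gadd45b in sedentary rats stays between 1.61 and 1.92.

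Across the 24 rats, Cdkn1a and Gadd45a were the most alike pair of the 7 genes, with a Pearson r of log2 CPM of 0.87 and of 0.84 after the group means were subtracted. Gadd45b and Gadd45g had an r of 0.66 over all rats and of 0.36 within groups. Ccng1 ran against the rest, with negative values in 5 of its 6 pairs, down to -0.74 with Gadd45b and -0.71 with Btg2 (-0.55 and -0.64 within groups). Mdm2 had an r of 0.55 with Cdkn1a and of 0.09 with Gadd45b. These correlations are descriptions over rats that share groups and, in each rat, a library.

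**Figure D4:**
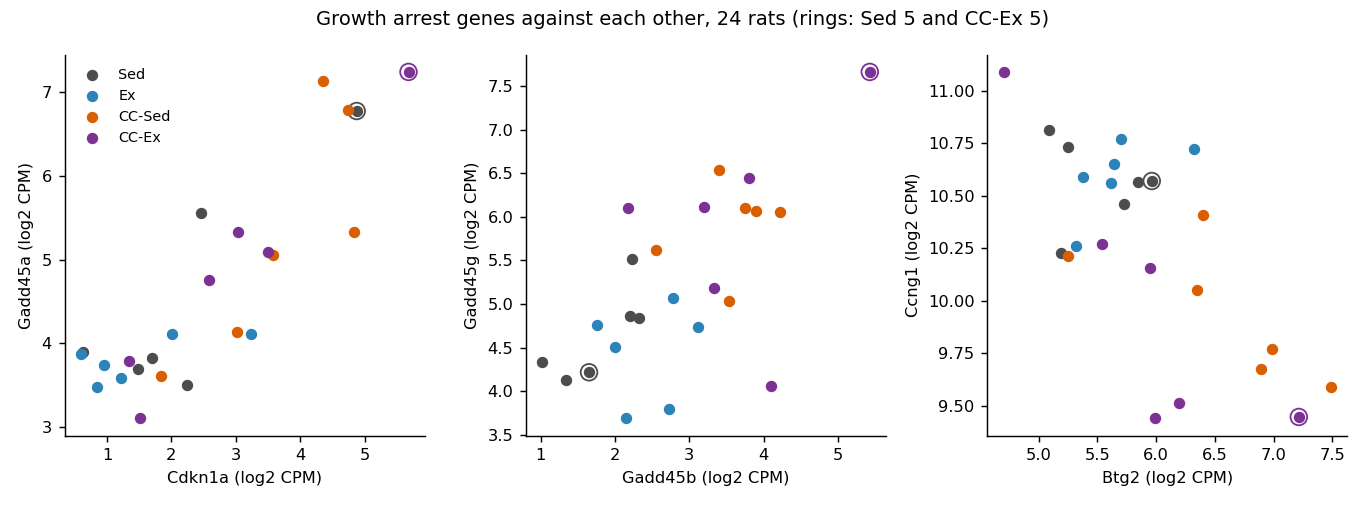
Log2 CPM of Gadd45a against Cdkn1a, Gadd45g against Gadd45b, and Ccng1 against Btg2 in 24 rats coloured by group, with Sed 5 and CC-Ex 5 ringed. Sed 5 lies with the high CC rats for Cdkn1a and Gadd45a and with the other Sed rats for Gadd45b and Gadd45g.

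The Gadd45 genes parted in single animals. Sed 5 had Cdkn1a and Gadd45a in the upper range of the CC rats, but its Gadd45b (3.10 CPM) and Gadd45g (18.6 CPM) were below the Sed medians. CC-Ex 5 was the highest CC-Ex rat for 6 of the 7 genes, all but Ccng1. CC-Sed 4 was the lowest CC-Sed rat for Cdkn1a, Gadd45a and Gadd45g and the highest for Ccng1.

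Slow-fibre marker levels moved with some of these values. In each of the 4 groups the rat with the lowest slow-fibre sum was the one with the highest Cdkn1a (Sed 5 at 56.8 CPM, Ex 1 at 59.9, CC-Sed 2 at 81.0 and CC-Ex 5 at 16.9). CC-Ex 4, with the second lowest sum of its group (28.2 CPM), had the lowest Cdkn1a there. Over the 24 rats the r between the log2 slow-fibre sum and the gene was -0.32 for Cdkn1a, -0.24 for Gadd45a, 0.15 for Gadd45b and -0.75 for Mdm2. The sum itself ran from 56.8 to 2102 CPM in Sed, 59.9 to 6439 CPM in Ex, 81.0 to 7381 CPM in CC-Sed and 16.9 to 5285 CPM in CC-Ex, and 0 of its 4 genes were DEGs. All 4 had a positive Log2FC in sedentary rats, of 1.64 to 2.01 (median 1.83; lowest edgeR adjusted p = 0.249), beside 1.78 for Gadd45b, and the median of their sum was 973 CPM in Sed and 3605 CPM in CC-Sed. The authors, with DESeq2, listed these 4 genes among their most upregulated DEGs in sedentary rats, at larger Log2FC values. The reason for the difference was not tested. In exercised rats the Log2FC of the 4 genes ran from -0.13 to 0.39 (median 0.10). The part of fibre type in the values of Gadd45b, Cdkn1a, Mdm2 and the other growth arrest genes was not tested.

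Other cell types were checked in the same way. Of 5 fibroblast markers, Col1a1 and Col3a1, which encode fibrillar collagens, were lower in the averaged comparison (Log2FC -1.64 and -1.46, edgeR adjusted p = 0.0143 and 0.0166), and the summed level was 345 to 2243 CPM in Sed, 688 to 4111 in Ex, 423 to 1253 in CC-Sed and 132 to 1295 in CC-Ex. Of 5 endothelial markers, 2 had a positive Log2FC, and the median of the 5 was -0.10. The 2 were Vwf, the clotting protein von Willebrand factor, a DEG at 1.26, and Kdr, higher by adjusted p alone (0.60). Of 3 erythroid markers, Hbb and Hba-a1, which encode globin chains, were DEGs at 1.11 and 1.06. The erythroid sum ran from 49.9 to 129.8 CPM in Sed, 92.2 to 209.6 in Ex, 50.5 to 409.1 in CC-Sed and 33.8 to 960 in CC-Ex, and was lowest in CC-Ex 5 within its group. Adipoq, the 1 adipocyte marker measured, was lower (-1.09). Of 6 macrophage and leukocyte, 3 satellite cell and 2 Schwann cell markers, 0 were DEGs. The part of these cells in the values of the 7 genes was not tested.

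The genes whose level was most like that of each of the 7 over the 24 rats differed between them. Cdkn1a was closest to Gstt2, a glutathione transferase (r = 0.93), Emc3 (0.88) and Mknk2, a kinase of the translation factor eIF4E (0.88). Gadd45a was closest to Emc3 (0.95), Serpinb6a (0.93) and Erh (0.93).

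Gadd45g was closest to Ddit4, an inhibitor of mTORC1 signalling that glucocorticoids induce (r = 0.93), Zfp184 (0.91) and Glul, glutamine synthetase (0.90). Gadd45b was closest to Plcd1, a phospholipase C (0.93), Qrich1 (0.90) and Leng8 (0.89). Btg2 was closest to Bag2, a co-chaperone (0.88), Csrnp1 (0.88) and Ccnl1 (0.87). For Ccng1 they were Pon3, a paraoxonase (0.94), Hras (0.93) and Hacd1 (0.93), and for Mdm2 Jagn1 (0.91), Cacul1 (0.90) and Rnf220 (0.89).

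Against the muscle atrophy ubiquitin ligases, Cdkn1a had an r of 0.85 with Fbxo32 and 0.82 with Trim63, and Gadd45a of 0.78 and 0.81. Gadd45b had 0.77 and 0.74, Gadd45g 0.74 and 0.76, and Btg2 0.70 and 0.85. Ccng1 was negative with both, at -0.77 and -0.72. With the group means subtracted, the r with Fbxo32 and Trim63 was 0.83 and 0.73 for Cdkn1a and 0.81 and 0.80 for Gadd45a. It was 0.56 and 0.63 for Gadd45b and 0.44 and 0.58 for Gadd45g. For Btg2 it was 0.59 and 0.82, and for Ccng1 -0.57 and -0.52. With Runx1, a transcription factor that rises in denervated muscle, the r was 0.64 for Cdkn1a and 0.79 for Gadd45a but 0.13 for Gadd45b and 0.11 for Gadd45g. After the group means were subtracted, these values were 0.77, 0.88, 0.40 and 0.22. The order was the other way with Foxo3, a forkhead factor, at 0.64 for Cdkn1a, 0.53 for Gadd45a, 0.80 for Gadd45b and 0.82 for Gadd45g. With the group means subtracted, the r with Foxo3 was 0.47, 0.42, 0.54 and 0.63.

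In the averaged comparison, of 19 other genes that respond to DNA damage and cell stress (22 listed), 4 were upregulated DEGs and 0 downregulated. By adjusted p alone 5 were higher and 4 lower, with a median Log2FC of -0.004, against 0.01 over all genes. Sesn1, which encodes the stress protein sestrin 1, had a Log2FC of 2.25 (SE 0.361, edgeR adjusted p = 3.92e-04). It was also a DEG in the sedentary and the exercised comparison, at 2.19 and 2.31. Tp53inp1, a nuclear stress protein that also acts in autophagy, had 2.16, Tp53i11 1.20 and Pmaip1, the pro-apoptotic protein Noxa, 1.09. Tigar, a regulator of glycolysis, was lower at -0.77 (edgeR adjusted p = 0.0015), with Ei24, Rrm2b and Sesn2 lower by less. Bax, the apoptosis effector, had a Log2FC of -0.004 (edgeR adjusted p = 0.985).

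Among the 3 other cell cycle inhibitors measured, 0 were DEGs in the averaged comparison, to which the values here and in the next paragraph also belong. Cdkn1b, encoding p27, passed the adjusted p alone (0.40, edgeR adjusted p = 0.0088). The relatives of Btg2 and Ccng1 numbered 5 (Btg1, Btg3, Tob1, Tob2 and Ccng2), of which 0 were DEGs, 2 were higher by adjusted p alone (Btg1 at 0.62 and Ccng2 at 0.67) and 1 lower (Tob1 at -0.56). Ccng1 and its sister Ccng2 thus had Log2FC values of opposite sign.

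Of 10 genes listed as kinases and partners of GADD45 proteins, 1 was a downregulated DEG and 0 were upregulated. The DEG was Map2k6, a kinase of p38 (-1.12, edgeR adjusted p = 0.0456). It was not a DEG in the sedentary or the exercised comparison (edgeR adjusted p = 0.170 and 0.288). By adjusted p alone, Map2k3, also a kinase of p38, was higher (0.64) and Gadd45gip1 was lower (-0.62, edgeR adjusted p = 0.0076). Map2k4 had a Log2FC of -0.08 (edgeR adjusted p = 0.43), and Map3k4, the kinase that GADD45 proteins bind, one of -0.11. Of 8 cyclins, cyclin-dependent kinases and pocket proteins, Ccnd1, encoding cyclin D1, was the 1 DEG (-1.37, edgeR adjusted p = 0.0028). In the sedentary and the exercised comparison Ccnd1 was not a DEG (edgeR adjusted p = 0.0887 and 0.0525). By adjusted p alone, 3 of the 8 were higher (Rbl2, Ccne2 and Rb1) and 3 lower (Ccnd1, Cdk6 and Ccnd3). Of 4 proliferation genes 0 were DEGs, and 1, Pcna, was higher by adjusted p alone (0.37, edgeR adjusted p = 0.0416). Mki67 had a Log2FC of -0.22 (edgeR adjusted p = 0.73).

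Of 12 factors listed as possible muscle regulators of Cdkn1a and Gadd45a, 4 were upregulated DEGs in the sedentary, the exercised and the averaged comparison. They were Foxo1 and Foxo3, forkhead factors of the atrophy programme (averaged Log2FC 2.43 and 1.57), Cebpd (2.63) and Klf15 (1.54), both of which respond to glucocorticoids. Myod1, the myogenic factor, was lower in the averaged comparison (-1.38, edgeR adjusted p = 0.0311), and Smad3 by adjusted p alone (-0.84). Atf4, which activates Gadd45a in starved or immobilised muscle, had a Log2FC of 0.37 (edgeR adjusted p = 0.0691) and Hdac4, which links denervation to Gadd45a, one of 0.37 (edgeR adjusted p = 0.178).

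**Figure D5:**
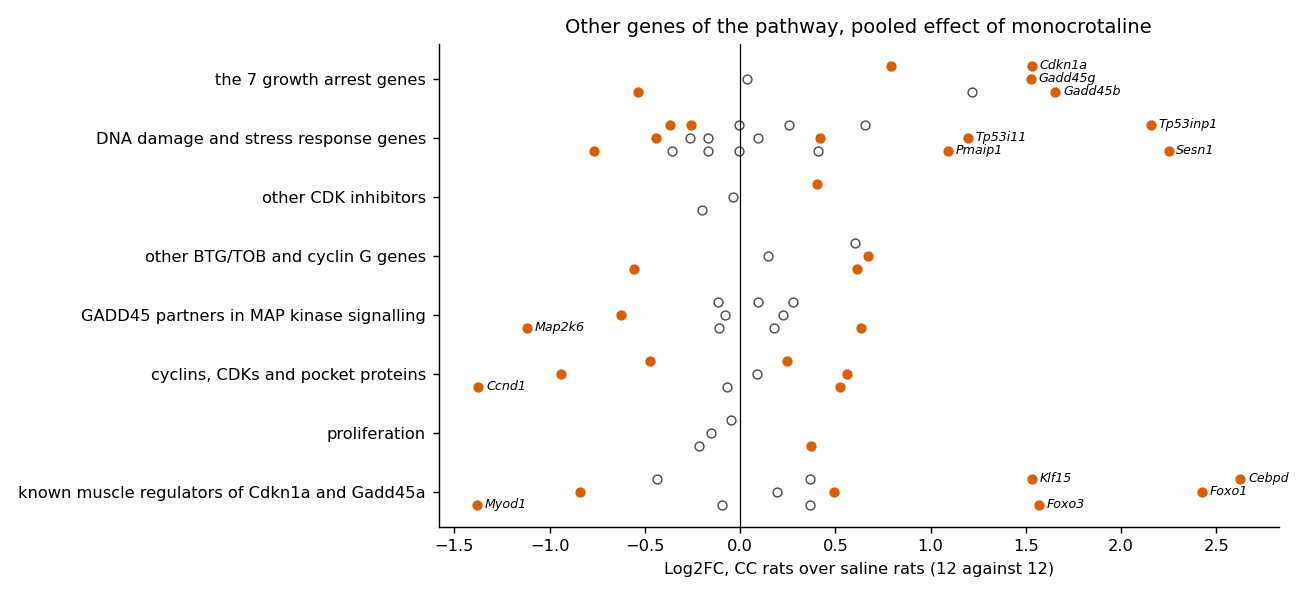
Log2FC of CC over saline rats, averaged over training states, for the 7 growth arrest genes and the measured genes of 7 related lists (filled orange, adjusted p under 0.05; named, DEGs). Foxo1 (2.43), Cebpd (2.63), Sesn1 (2.25) and Tp53inp1 (2.16) lie furthest to the right, Ccnd1 (-1.37) and Myod1 (-1.38) furthest to the left, and Mdm2 lies at 0.04.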

How the data were processed

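Poly-A RNA from the medial gastrocnemius of 24 rats was sequenced, and the sample titles gave each rat's group and replicate number. The authors trimmed reads with Trim Galore, quantified them with Salmon on the mRatBN7.2 transcriptome and collapsed transcripts to genes with tximport. The deposited values are estimated counts, stored as whole numbers without library scaling. The lowest is 10, so genes with lower counts in any rat are not used here. The authors tested with DESeq2 1.44.0.

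In R 4.3.3, edgeR 4.0.16 was run on the 10851 genes with TMM scaling and a quasi-likelihood model of the 4 groups (24 rats, Benjamini-Hochberg adjustment, 0 genes removed by the expression filter). The SE of a Log2FC is its absolute value over the root of F. CPM use TMM-scaled library sizes, and log2 CPM a prior count of 2. A DEG met an adjusted p under 0.05 and an absolute Log2FC of 1 or more. Alternatives were DESeq2 1.42.0, limma-voom with quality weights (limma 3.58.1), upper-quartile scaling, no filter, a mean of at least 100 counts, the 12 rats compared alone, a replicate block, the library number of the labels as covariate, the adjusted p alone and each rat left out. As the filter removed 0 genes, the fit without it repeats the main fit, and it counts among the other settings. Library numbers were uneven between the groups, so that covariate is in part confounded with the CC effect. The edgeR, DESeq2 and limma fits were first tested on simulated data.

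The 7 genes and all lists were chosen with earlier results of these data known. All 7 are named in every comparison, as are up to 5 DEGs a list and the 3 genes with the highest r for each of the 7. List members named without being DEGs, and the genes set against the 7 by r (Fbxo32, Trim63, Runx1 and Foxo3, of 7 computed), were chosen by hand after their values were seen. Results for 1 further gene, and the list that held it, are not reported here. Promoters were matched by symbol to RefSeq on GRCr8 (7 of 7). Rats of a group gave a lowest chi-square over degrees of freedom of 43.8, far above that of a library sequenced again. Each library is a separate animal, so p-values measure the spread between rats.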

Additional observations from a re-analysis of the deposited data

Results flagged for a closer look

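Single rats stood apart from the other 5 of their group in 8 of the 28 groups of values examined (7 genes in 4 groups), by Dixon's test at the 95% level on CPM, where chance gives about 1 in 20 for normally distributed values. The count depends on the scale, since on log2 CPM, added after seeing the data, 0 of the 28 passed the same limit. Cdkn1a was high in Sed 5 (29.4 CPM), in Ex 1 (9.36 CPM) and in CC-Ex 5 (51.3 CPM). Gadd45a was high in Sed 5 (109.4 CPM) and in CC-Ex 5 (151.2 CPM), and Gadd45b in CC-Ex 5 (42.9 CPM). Ccng1 was high in CC-Ex 4 (2180 CPM), and Btg2 in Ex 5 (80.2 CPM). Sed 5, Ex 1 and CC-Ex 5 had the lowest slow-fibre marker sums of their groups, 56.8, 59.9 and 16.9 CPM, and the part of fibre type in these values was not tested.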

How the results depend on the processing

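Of 364 Log2FC values of the 7 genes recomputed under other settings, 320 kept their direction and call, 12 gained and 7 lost a call, and 25 changed sign, none of them a called value. The cause was not tested for any of these. The 364 values and the 320 kept include the fit without a filter, which repeats the main fit. In sedentary rats, 203 DEGs became 318 with DESeq2, 383 with limma-voom, 701 by adjusted p alone and 337 without Sed 5 and CC-Ex 5, and the 2 of the 7 genes called became 4 with limma-voom and without these rats. In exercised rats, 57 DEGs became 214 with DESeq2, 133 with limma-voom, 108 by adjusted p alone, 36 with the library number as covariate, 20 with upper-quartile scaling, 3 without both rats and 1 in the model of 12 rats. The 1 of the 7 called there became 2 with DESeq2 and limma-voom and 0 with the others of these except the adjusted p alone. In the averaged comparison, 313 DEGs became 3017 by adjusted p alone, with 5 of the 7. Upper-quartile scaling moved the share of averaged DEGs that were higher from 71.2% to 59.4%, and the median Log2FC of all genes from 0.0144 to -0.0628.

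The replicate numbers do not pair the rats, as residuals of same-numbered rats had correlations of -0.505 to 0.357 in the sedentary and -0.423 to 0.152 in the exercised groups, and 2 of 6 and 0 of 6 pairs matched best with their own number. With the numbers as a replicate block, 1 DEG remained in exercised rats, 0 of the 7 genes were called there (Gadd45g adjusted p = 0.0954), and the interaction was -0.18 for Cdkn1a and -0.017 for Gadd45a. The block changed no other call among the 7.

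Mdm2 was below 0 in sedentary rats with DESeq2 (-0.017), upper-quartile scaling (-0.080), the stricter filter (-0.012) and 12 rats (-0.011). In exercised rats it was -0.030 with upper-quartile scaling, -0.15 with limma-voom and -0.12 without both rats, and averaged it was -0.055, -0.069 and -0.047. The interaction without both rats was -1.39 for Cdkn1a, -0.73 for Gadd45a and -0.15 for Mdm2. With limma-voom it was -0.58, -0.066 and -0.15 for these, -0.20 for Gadd45g and -0.056 for Ccng1. For CC-Ex over CC-Sed, limma-voom gave -0.10 for Gadd45b, -0.37 for Gadd45g and -0.039 for Ccng1, and leaving out both rats -0.17 and -0.16 for the former pair.

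With 1 rat left out, DEGs numbered 73 (without CC-Sed 6) to 404 (without CC-Sed 4) in sedentary rats, 2 (without Ex 2, among others) to 251 (without CC-Ex 4) in exercised rats and 214 to 377 averaged, with 1 to 3, 0 to 2 and 2 to 4 of the 7 genes. Values that changed sign ran, for Mdm2, from -0.071 to 0.060 in sedentary rats, -0.12 to 0.14 in exercised rats, -0.073 to 0.074 averaged, -0.20 to 0.039 for CC-Ex over CC-Sed and -0.099 to 0.14 in the interaction. For Ex over Sed they ran from -0.033 to 0.087 for Ccng1 and -0.016 to 0.25 for Btg2. For CC-Ex over CC-Sed they ran from -1.22 to 0.11 for Gadd45a, -0.17 to 0.58 for Gadd45b, -0.16 to 0.56 for Gadd45g and -0.17 to 0.26 for Ccng1. In the interaction they ran from -0.25 to 1.51 for Cdkn1a and -0.20 to 0.23 for Ccng1.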
